A study of Mus musculus with 20 samples.

Results

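The response to induced CLOCK and BMAL1 was compared between 2 mouse cell types: embryonic stem cells (ESC) and presomitic mesoderm colonies made from ESC (iPSM). The comparison uses the 8 libraries of the tetO-Clock/Bmal1 clones among the 20 libraries of the series, and was chosen by genotype and cell type, not by any measured value. These 8 libraries are clones 1 and 7 of the ESC line KY1.1 and clones 12 and 20 of iPSM derived from E14TG2a ESC, each sequenced once without and once with doxycycline (dox). In these lines dox switches on transgenic Clock and Bmal1 (Bmal1 has the gene symbol Arntl). The quantity of interest is the log2 change with dox in iPSM minus the log2 change with dox in ESC.

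The 2 cell types differed in more than identity. ESC had 500 ng/mL dox for a period of 6 hours, and iPSM colonies had 1000 ng/mL for a period of 2 hours. The iPSM lines also carry a luciferase reporter under the Hes7 promoter (pHes7-luc), have another parental ESC line and were grown as ESC without feeder cells. Cell type, dose, duration and parental line therefore change together and cannot be told apart in any difference given here. Each clone is 1 line, and each group has 2 clones, so the spread is that between clones. The other 12 libraries entered the same fit. Of these, 8 came from tetO-Clock/Bmal1DN clones (5 and 6 in ESC, 7 and 19 in iPSM) and 4 from lines labelled as control, 1 untreated and 1 treated in each cell type. The Clock/Bmal1DN libraries added to the estimate of the spread. The control libraries, with 1 in each group, did not. The Clock/Bmal1DN clones also gave the untreated levels by which genes were compared, the dox effects set beside those of Clock/Bmal1, and the difference net of theirs.

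CLOCK and BMAL1 are basic helix-loop-helix transcription factors that bind together to E-box sequences, most often CACGTG, and drive the circadian clock. Among their targets are the genes of their own repressors (the Per and Cry genes) and of the REV-ERB receptors, which in turn repress Arntl. ESC are known to lack circadian oscillation until they differentiate, while presomitic mesoderm runs a different oscillator, the segmentation clock, in which Hes7 and Notch signalling cycle as somites form.

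A CACGTG E-box was looked for in the 300 bases around the start of each gene, from 250 bases before it to 50 bases after it, in promoters taken from RefSeq on GRCm38.p6. The motif is its own reverse complement, so a match counts on both strands. It was present in 31 of the 71 genes called in both cell types that had a promoter in the table (43.7%). Among genes that rose in ESC without a call in iPSM it was in 27 of 113 (23.9%), and among genes that rose in iPSM without a call in ESC in 15 of 61 (24.6%). All genes tested held it in 9.32% of 14556 promoters, and the whole table of 32851 promoters in 7.15%. The share was highest in the shared genes, and above that of all genes tested in both sets called higher in 1 cell type. The 250 bases upstream of 4 genes called in both cell types, of 2 called in ESC only and of 1 called in iPSM only are printed here with the E-box in capitals. Not all genes with the motif are printed. Bhlhe41, Tef, Ciart and Prok2, called in both cell types, and D16Ertd472e, called in iPSM only, hold it as well. Some other named genes lack the motif in these 250 bases. Among those without it are Nr1d1 and Dbp, called in both cell types, Per3 and Spib, called in ESC only, and Hrh3 and Gpr176, called in iPSM only. The printed stretches each hold the motif, so they do not show how common it is in genes of any pattern. They lie at chr11:69098699-69098948, + strand (Per1), chr10:85185055-85185304, - strand (Cry1), chr5:140607091-140607340, + strand (Lfng), chr2:127335909-127336158, + strand (Dusp2), chr11:119267713-119267962, + strand (Gaa), chr17:26508473-26508722, - strand (Dusp1) and chr2:11502091-11502340, - strand (Pfkfb3). Each is written 5′ to 3′ on the gene's strand, and the last base is the one before the RefSeq start. The first 4 rose in both cell types, Gaa and Dusp1 were called in ESC, and Pfkfb3 was called in iPSM.
Per1: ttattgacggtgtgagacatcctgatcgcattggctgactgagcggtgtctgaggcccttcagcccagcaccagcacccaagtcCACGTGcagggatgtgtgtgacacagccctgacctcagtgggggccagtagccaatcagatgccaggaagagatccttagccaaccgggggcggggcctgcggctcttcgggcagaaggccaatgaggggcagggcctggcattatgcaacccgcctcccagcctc
Cry1: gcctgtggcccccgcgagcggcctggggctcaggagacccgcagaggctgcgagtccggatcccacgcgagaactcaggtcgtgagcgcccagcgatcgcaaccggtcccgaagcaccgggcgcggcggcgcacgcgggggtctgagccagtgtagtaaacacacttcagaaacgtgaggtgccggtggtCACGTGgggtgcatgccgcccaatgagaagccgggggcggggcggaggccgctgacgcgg
Lfng: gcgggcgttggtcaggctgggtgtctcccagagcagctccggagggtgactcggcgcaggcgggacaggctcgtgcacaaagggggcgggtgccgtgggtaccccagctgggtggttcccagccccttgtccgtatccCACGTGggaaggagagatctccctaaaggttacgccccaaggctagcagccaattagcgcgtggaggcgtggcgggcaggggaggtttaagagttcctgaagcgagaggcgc
Dusp2: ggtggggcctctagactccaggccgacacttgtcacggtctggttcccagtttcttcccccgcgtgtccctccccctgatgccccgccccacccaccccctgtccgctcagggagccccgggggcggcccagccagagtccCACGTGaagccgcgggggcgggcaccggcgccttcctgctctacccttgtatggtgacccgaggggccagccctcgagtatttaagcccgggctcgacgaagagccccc
Gaa: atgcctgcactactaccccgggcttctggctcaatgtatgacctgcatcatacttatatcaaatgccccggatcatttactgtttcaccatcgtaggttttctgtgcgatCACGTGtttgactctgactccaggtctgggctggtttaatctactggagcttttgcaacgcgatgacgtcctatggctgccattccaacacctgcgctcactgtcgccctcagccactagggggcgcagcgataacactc
Dusp1: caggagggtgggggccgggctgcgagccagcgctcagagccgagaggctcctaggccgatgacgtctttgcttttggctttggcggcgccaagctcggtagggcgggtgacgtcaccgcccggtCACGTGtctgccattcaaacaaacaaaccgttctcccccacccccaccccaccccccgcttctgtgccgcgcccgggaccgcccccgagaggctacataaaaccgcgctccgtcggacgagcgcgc
Pfkfb3: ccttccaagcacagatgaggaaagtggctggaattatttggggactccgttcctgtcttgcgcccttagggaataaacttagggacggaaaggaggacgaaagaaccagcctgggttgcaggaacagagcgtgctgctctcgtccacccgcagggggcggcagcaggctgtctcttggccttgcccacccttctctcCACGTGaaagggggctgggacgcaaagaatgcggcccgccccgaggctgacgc
The first base of the motif lay 166 bases before the start in Per1, 60 in Cry1, 112 in Lfng, 109 in Dusp2, 140 in Gaa, 126 in Dusp1 and 53 in Pfkfb3.

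Library totals of the 8 Clock/Bmal1 libraries were 40.8 to 57.3 M counts (M, mega). The summed naive and presomitic markers matched the labels. The 9 naive pluripotency markers (Pou5f1, Nanog, Sox2, Esrrb and others) summed to 1985 to 2519 CPM in ESC (CPM, counts scaled to a common library size) and to 325 to 427 CPM in iPSM. The 11 presomitic markers, with T, Tbx6 and Msgn1 among them, summed to 31.4 to 70.4 CPM in ESC and to 831 to 1294 CPM in iPSM. T alone gave 373 to 519 CPM of the iPSM sums, and Mesp2 went the other way, at 0.605 to 0.685 CPM in untreated ESC and 0.0568 to 0.111 CPM in untreated iPSM. Fibroblast feeder markers (7 genes) were at 78.6 to 224 CPM in ESC and 14.5 to 26.5 CPM in iPSM. Summed somite markers (5 genes) were at 16.5 to 27.3 CPM in ESC and 4.64 to 5.30 CPM in iPSM. Tcf15 gave most of these somite sums, at 15.4 to 18.1 CPM in treated ESC and 3.33 to 4.09 CPM in treated iPSM. Pax3 went the other way, at 0.0781 to 0.152 CPM in untreated ESC and 0.757 to 0.779 CPM in untreated iPSM. Untreated levels of Meox1 and Uncx overlapped between the cell types, and those of Foxc2 were higher in ESC. Neural markers (5 genes) were at 9.76 to 18.4 CPM in ESC, at 1.06 to 1.07 CPM in untreated and at 2.95 to 4.68 CPM in treated iPSM. Olig2 (6.55 to 7.26 CPM) and Pax6 (4.73 to 6.47 CPM) gave most of the neural sums in untreated ESC. Neurog2 went the other way, at 0.0781 to 0.114 CPM in untreated ESC and 0.265 to 0.289 CPM in untreated iPSM. Endoderm markers (4 genes, Ttr at 0) reached no more than 2.49 CPM. In bulk RNA, fewer cells of a type and less RNA per cell cannot be told apart. Among the control lines the untreated iPSM library stood apart, with reads over 69.4% of all features against 43.8% to 54.0% in the other 19 libraries. Without the control lines 279 genes were called in ESC, 189 in iPSM and 100 in both.

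The transgenes were induced in both cell types. Clock was at 42.9 and 63.0 CPM in untreated ESC clones 1 and 7 and at 767 and 628 CPM with dox. In iPSM clones 12 and 20 it was at 92.3 and 96.5 CPM untreated and at 1614 and 2251 CPM with dox. Every treated iPSM library was thus above every treated ESC library, from an untreated level that was higher as well. Clock rose by 3.72 ± 0.481 in ESC (log2 change with its SE, 2 clones in each group, adjusted p = 0.000807) and by 4.36 ± 0.495 in iPSM (adjusted p = 0.00029). Adjusted p-values are from edgeR's quasi-likelihood test unless another tool is named. Arntl was at 49.1 and 51.3 CPM in untreated and at 2415 and 4521 CPM in treated ESC, against 52.4 and 72.1 CPM and 2966 and 4287 CPM in iPSM. Its treated levels overlapped between the cell types, and it rose by 6.11 ± 0.709 in ESC (adjusted p = 0.000376) and by 5.86 ± 0.701 in iPSM (adjusted p = 0.000465). These counts hold transgene and endogenous reads together, and Clock reads also include features on its strand that overlap it (Gm43658 and Ube2n-ps1). The difference between the cell types was 0.64 for Clock (95% interval -0.67 to 1.94) and -0.25 for Arntl (-1.96 to 1.47), and neither passed (adjusted p = 1.00 for both).

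More genes were called in ESC than in iPSM, and most calls were rises. A gene was called at an adjusted p under 0.05 among the 26814 genes tested. With dox, 268 genes rose in ESC (0.999% of genes tested) and 19 fell (0.0709%). In iPSM 188 genes rose (0.701%) and none was called lower with edgeR as described, where 197 genes had an unadjusted p under 0.05 in that direction. The number of falls moved with the setting. DESeq2 called 106 lower of 581 in ESC and 5 of 316 in iPSM, and edgeR without a filter on low counts 114 of 734 and 13 of 436. The 102 genes called in both cell types (0.38%) all rose in both. They made up 35.5% of the ESC calls and 54.3% of the iPSM calls, and no gene was called in opposite directions. The counts rested on single libraries. With untreated clone 1 left out, ESC calls numbered 73, with treated clone 1 left out 118, with untreated clone 7 left out 95 and with treated clone 7 left out 339. The iPSM calls numbered 89 without untreated clone 12, 63 without untreated clone 20 and 68 without treated clone 20, and 218 without treated clone 12. Shared calls numbered 53 without untreated ESC clone 1, 65 without untreated ESC clone 7, 58 without untreated iPSM clone 12, 46 without untreated iPSM clone 20 and 52 without treated iPSM clone 20. A fit with clone as a block called 498 genes in ESC (431 higher, 67 lower), 263 in iPSM (259 higher, 4 lower) and 156 in both, and with the block among the 8 libraries alone 77 were called lower in ESC and 7 in iPSM.

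Genes called in 1 cell type mostly moved the same way in the other. Of the 166 genes that rose in ESC without a call in iPSM, 153 had a positive log2 change in iPSM and 82 of them an unadjusted p under 0.05 there. Over all genes tested, 42.0% were positive in iPSM and 3.57% were positive with such a p. Of the 86 genes that rose in iPSM without a call in ESC, 82 were positive in ESC and 57 of them had an unadjusted p under 0.05, against 50.6% and 7.12% of all genes tested. The 19 genes that fell in ESC were negative in iPSM in 17 cases, 1 of them with an unadjusted p under 0.05. A call in 1 cell type was therefore no sign that the other did not respond, and these genes are not shown to differ.

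The size of the response depended on which cell type chose the genes. Sizes were compared over genes with more than 3 counts in each of the 4 groups. Over the 267 such genes called in ESC, the median log2 change was 1.92 in ESC and 0.96 in iPSM. The median of the iPSM change as a share of the ESC change was 0.567 (quartiles 0.259 to 0.829). Among the 248 of these genes that rose in ESC, the rise was smaller in iPSM for 202. Over the 19 that fell in ESC the median share was 0.166. Over the 173 such genes called in iPSM, the order turned: the median was 1.84 in ESC and 2.53 in iPSM, and the ESC change was a median of 0.743 of the iPSM change. The genes were chosen by the change in 1 of the cell types, so neither value alone gives the relative strength of the 2 responses. Over the 90 such genes called in both, the medians were 2.89 in ESC and 2.91 in iPSM, the median ratio of iPSM to ESC was 1.01 (quartiles 0.813 to 1.25), and 44 genes were smaller and 46 larger in iPSM. For 64 of the 90 the difference was within 1 log2 unit, and for 26 it was larger. Across these 90 genes the 2 changes correlated at Pearson's r = 0.785 and Spearman's rank coefficient = 0.807, a description across genes that share the same 8 libraries. The 90 genes had to be called in both cell types, which favours similar changes, so these values do not show responses of equal strength. In the Clock/Bmal1DN clones the same 90 genes had median dox effects of 0.07 in ESC and -0.03 in iPSM. When single libraries were left out, the share over ESC-called genes ran from 0.488 to 0.782 and the share over iPSM-called genes from 0.619 to 0.875. With clone as a block among the 8 libraries alone the former was 0.351, and with no filter on low counts it was 0.348.

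**Figure D1:**
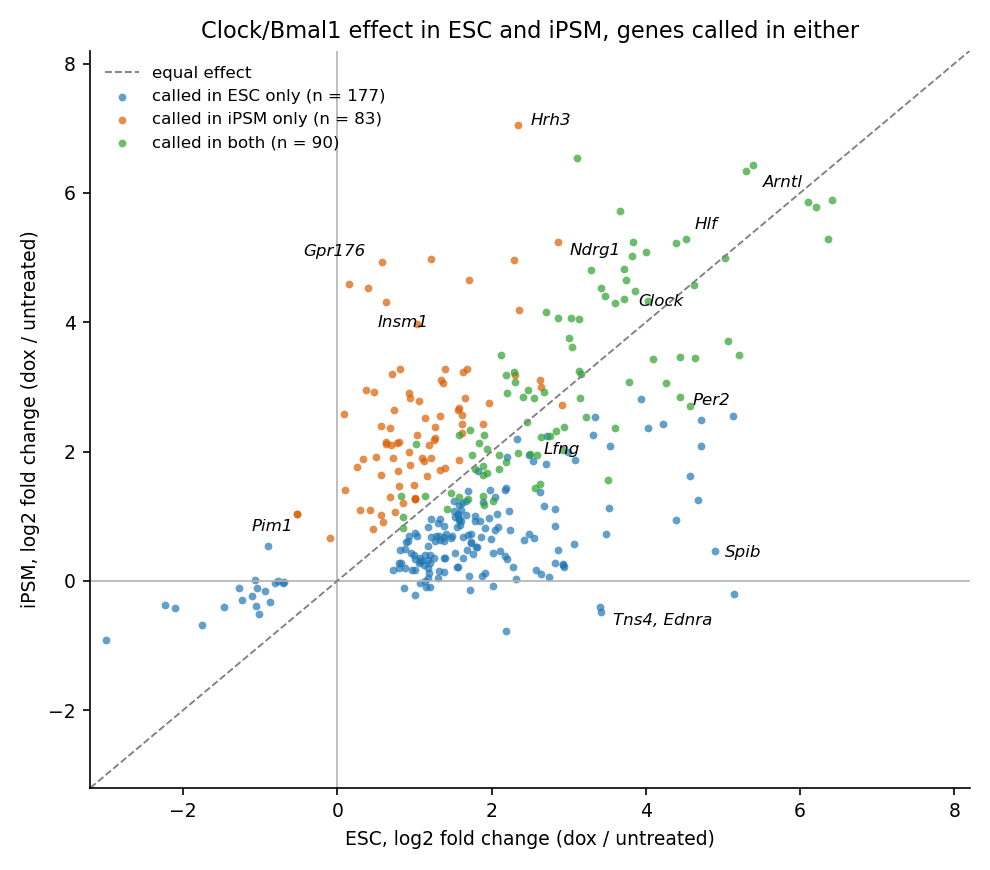
Log2 fold change with dox in ESC (horizontal axis) against that in iPSM (vertical axis), 1 point per gene with more than 3 counts in each group and a call in at least 1 cell type, coloured by where it was called. The 90 green points, called in both cell types, lie on both sides of the dashed line of equal effect. For 26 of them the difference is over 1 log2 unit. The 177 blue and 83 orange points spread to the side of the cell type that called them, by which they were chosen.

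The clock's own repressor loop responded in both cell types. Of 9 repressor genes on a list of clock genes, 8 rose in ESC and 6 in iPSM, those 6 in both. The shares of all genes tested were 0.999%, 0.701% and 0.38%. List medians were 2.55 and 2.82, and the median difference was -0.62, against -0.04 over all genes tested. Ciart, which encodes the repressor CHRONO, gave the closest match and was singled out after its values were seen. It went from 4.59 and 4.04 CPM to 82.2 and 130 CPM in ESC clones 1 and 7 and from 3.01 and 2.58 CPM to 55.0 and 78.8 CPM in iPSM clones 12 and 20. The log2 change was 4.62 ± 0.283 in ESC (adjusted p = 1.19e-06) and 4.58 ± 0.285 in iPSM (adjusted p = 1.63e-06), with a difference of -0.04 (95% interval -0.80 to 0.72). Ciart is 1 of 9 genes called in both whose interval lay within 1 log2 unit of 0.

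Per1 and Per2 encode PERIOD proteins, which bind CLOCK and BMAL1 and inhibit them. Per1 was at 6.00 and 3.41 CPM in untreated and 60.0 and 23.0 CPM in treated ESC, and at 7.17 and 4.67 CPM in untreated and 36.9 and 47.7 CPM in treated iPSM. Treated levels overlapped between the cell types. It rose by 3.14 ± 0.404 in ESC (adjusted p = 0.000783) and by 2.83 ± 0.398 in iPSM (adjusted p = 0.00173), a difference of -0.31 (95% interval -1.43 to 0.82). Per2 started lower in ESC, at 0.820 and 0.780 CPM, and reached 23.3 and 11.5 CPM. In iPSM it went from 3.18 and 1.58 CPM to 13.6 and 20.7 CPM, so its treated levels overlapped between the cell types and its untreated levels did not. Its rise was 4.44 ± 0.543 in ESC (adjusted p = 0.000549) and 2.85 ± 0.496 in iPSM (adjusted p = 0.00941), with a difference of -1.59 (95% interval -3.05 to -0.14) that did not pass adjustment (adjusted p = 1.00). Without untreated iPSM clone 20 the iPSM calls of Per1 and Per2 were lost (adjusted p = 0.0693 and 0.248), and that of Per2 also without treated clone 20 (0.121).

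Per3, the remaining PERIOD gene, was called in ESC only. It went from 5.86 and 4.05 CPM to 18.6 and 16.02 CPM in ESC (1.80 ± 0.277, adjusted p = 0.00316), a call lost without untreated clone 7 (adjusted p = 0.085). In iPSM it was already at 30.6 and 21.7 CPM untreated and reached 38.0 and 37.3 CPM (0.52 ± 0.264, adjusted p = 1.00). Each untreated iPSM library was above each treated ESC library. Per3 shares its strand with the overlapping Camta1. Cry1, which encodes a cryptochrome repressor, went from 31.3 and 20.9 CPM to 108 and 86.2 CPM in ESC (1.90 ± 0.230, adjusted p = 0.000531) and from 28.7 and 26.8 CPM to 54.4 and 71.1 CPM in iPSM (1.18 ± 0.226, adjusted p = 0.0198). Untreated levels of Cry1 overlapped, while treated levels did not. Its difference was -0.72 (95% interval -1.39 to -0.05, adjusted p = 1.00), and its iPSM call was lost without untreated clone 12 (0.132), untreated clone 20 (0.274) or treated clone 20 (0.374). Bhlhe41, which encodes the E-box repressor DEC2, rose from 0.293 and 0.0761 CPM to 16.4 and 14.3 CPM in ESC (6.36 ± 0.520, adjusted p = 1.93e-05) and from 0.492 and 0.356 CPM to 12.3 and 21.1 CPM in iPSM (5.28 ± 0.481, adjusted p = 3.61e-05). Cipc alone among the 9 repressor genes was called in neither, and Cry2 was called in ESC only.

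The REV-ERB genes, the nuclear receptor repressors of the clock, were called in both cell types, against 0.38% of all genes tested. Nr1d1, which encodes REV-ERB alpha, rose from 1.84 and 1.88 CPM to 24.4 and 17.0 CPM in ESC (3.47 ± 0.367, adjusted p = 0.000165) and from 2.01 and 1.20 CPM to 29.6 and 38.9 CPM in iPSM (4.41 ± 0.383, adjusted p = 3.2e-05). Its treated iPSM levels were above its treated ESC levels, and the difference was 0.94 (95% interval -0.09 to 1.96). Nr1d2 (REV-ERB beta) rose from 48.2 and 71.6 CPM to 218 and 225 CPM in ESC (1.89 ± 0.220, adjusted p = 0.000376). In iPSM it rose from 82.0 and 54.5 CPM to 176 and 164 CPM (1.31 ± 0.216, adjusted p = 0.00579), a call lost without untreated clone 20 (0.134). Rora and Rorb were called in neither cell type.

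All 3 PAR bZIP genes, transcription factors that the clock drives as output, rose in both cell types, against 0.38% of all genes tested. Nfil3, which encodes their repressor counterpart, was called in neither. Dbp went from 4.20 and 4.02 CPM to 54.1 and 59.4 CPM in ESC (3.79 ± 0.464, adjusted p = 0.000549) and from 4.58 and 5.10 CPM to 32.8 and 48.7 CPM in iPSM (3.07 ± 0.450, adjusted p = 0.00237). Untreated levels of Dbp were between 4.02 and 5.10 CPM in all 4 libraries, and treated levels were higher in ESC. Hlf rose by 4.53 ± 0.481 in ESC and by 5.28 ± 0.505 in iPSM (adjusted p = 0.000165 and 5.49e-05). Tef went from 24.1 and 30.5 CPM to 165 and 158 CPM in ESC (2.56 ± 0.193, adjusted p = 7.84e-06) and from 55.7 and 40.0 CPM to 122 and 138 CPM in iPSM (1.44 ± 0.185, adjusted p = 0.000836). ESC libraries of Tef were the lowest untreated and the highest treated. Its difference of -1.12 (95% interval -1.67 to -0.57) did not pass (adjusted p = 0.719, and 0.0989 with DESeq2). The iPSM call of Dbp was lost without untreated clone 12 (0.0627) or untreated clone 20 (0.0636).

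Beyond these loops few clock genes were called with edgeR. Of 10 other clock-controlled outputs, Usp2 rose in ESC and Klf10 in iPSM, against 0.999% and 0.701% of all genes tested. DESeq2 called 2 of the 10 in ESC and 4 in iPSM, and 4 had an unadjusted p under 0.05 in each cell type. For the difference 5 had such a p, against 4.04% of all genes tested, and neither tool called any. Usp2, which encodes a deubiquitinase, went from 1.82 and 1.05 CPM to 11.4 and 5.18 CPM in ESC (2.53 ± 0.454, adjusted p = 0.0102) and from 2.63 and 1.22 CPM to 5.91 and 8.13 CPM in iPSM (1.86 ± 0.442, adjusted p = 0.0847). Klf10, which encodes a zinc-finger factor, went from 81.2 and 66.4 CPM to 136 and 118 CPM in ESC (0.79 ± 0.247, adjusted p = 0.223) and from 57.8 and 37.1 CPM to 159 and 150 CPM in iPSM (1.70 ± 0.253, adjusted p = 0.00255). With clone as a block both genes were called in both cell types (adjusted p = 0.0132 for Usp2 in iPSM and 0.0414 for Klf10 in ESC). The ESC call of Usp2 was lost without untreated clone 1 (0.0555), treated clone 1 (0.157) or untreated clone 7 (0.196), and the iPSM call of Klf10 without untreated clone 20 (0.0721). None of 13 genes for clock kinases and ubiquitin enzymes was called in either cell type with edgeR or DESeq2, with an unadjusted p under 0.05 for 1 of them in ESC and 0 in iPSM. With 1.07% of all genes called in ESC and 0.701% in iPSM, that count is near the background. Of the activators other than Clock and Arntl neither Npas2 nor Arntl2 was called.

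**Figure D2:**
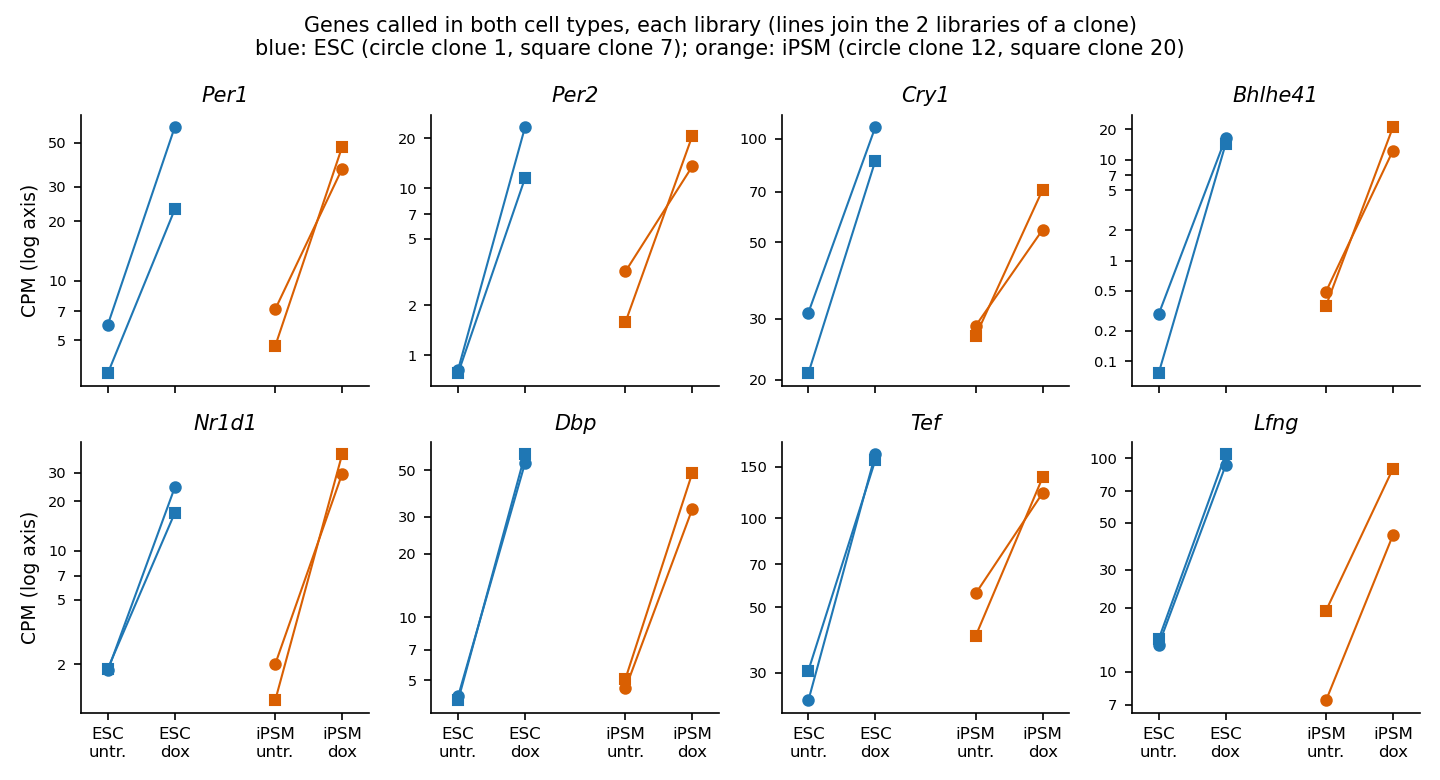
CPM on a log axis in each of the 8 libraries for 8 genes called in both cell types, with a line joining the untreated and the treated library of each clone. Every line rises; Per2 and Tef start lower in ESC than in iPSM, while Per1, Nr1d1 and Dbp start at overlapping or near levels.

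Some genes went from no or almost no reads to a clear signal in both cell types. Ntsr2, which encodes a neurotensin receptor, had 0 counts in all 4 untreated libraries and 217 counts in the treated ESC and 194 in the treated iPSM libraries together. Against a floor of 3 counts over the group it was at least 96.8-fold higher with dox in ESC and at least 65.6-fold higher in iPSM. Nkx1-1, a homeobox gene, went from 3 to 220 counts in ESC (ratio of depth-scaled counts 98.2, 95% counting interval 33.2 to 480) and from 0 to 152 counts in iPSM (at least 51.4-fold higher). Prok2, which encodes the secreted peptide prokineticin 2, went from 1 to 106 counts in ESC (ratio 142, interval 24.9 to 5656) and from 2 to 393 counts in iPSM (ratio 199, interval 54.8 to 1653). Intervals and floors cover counting error only. Helt, a hairy-related repressor gene, went from 1 to 81 counts in ESC (ratio 108, interval 18.9 to 4335) and from 0 to 63 counts in iPSM (at least 21.3-fold higher). These 4 genes were called in both cell types, Ntsr2 and Nkx1-1 also with each library left out in turn. Prok2 lost its ESC call without untreated clone 1 (adjusted p = 0.0577), and Helt lost its calls in fits without 1 library, with adjusted p up to 0.204 in ESC and 0.257 in iPSM. Over all 102 shared genes the median untreated level was 1.53 CPM in ESC and 1.20 CPM in iPSM, and the median treated level was 14.6 and 12.0 CPM. Of the 102, 45 were under 1 CPM in untreated ESC and 49 in untreated iPSM.

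A few Notch and segmentation genes were called. Of 32 genes, 2 rose in ESC and 4 in iPSM, with 2 in both, against 0.999%, 0.701% and 0.38% of all genes tested. DESeq2 called 5 in ESC and 7 in iPSM. List medians were 0.39 and 0.11 against 0.01 and -0.03 over all genes tested. Lfng encodes the Fringe glycosyltransferase that modifies Notch. It went from 13.4 and 14.2 CPM to 92.5 and 104 CPM in ESC and from 7.34 and 19.3 CPM to 43.7 and 89.4 CPM in iPSM. All treated libraries were above all untreated ones, and iPSM clone 12 was the lowest in both conditions. Lfng rose by 2.83 ± 0.408 in ESC (adjusted p = 0.00177) and by 2.32 ± 0.400 in iPSM (adjusted p = 0.0086), with a difference of -0.51 (95% interval -1.67 to 0.64). Dll4, a Notch ligand gene, rose by 3.04 ± 0.597 in ESC (adjusted p = 0.019) and 3.61 ± 0.600 in iPSM (adjusted p = 0.00619) but reached only 0.957 to 1.95 CPM. Without 1 library Lfng lost its call in ESC (untreated clone 1, adjusted p = 0.0502) and in iPSM (untreated clone 12, 0.102, and treated clone 20, 0.198). Dll4 lost its calls with adjusted p up to 0.257 in ESC and 0.136 in iPSM.

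Hes1, which encodes a Notch effector and repressor, was called in iPSM. It went from 11.5 and 19.1 CPM to 87.5 and 92.3 CPM there (2.55 ± 0.399, adjusted p = 0.00411), and from 10.5 and 18.1 CPM to 26.8 and 45.2 CPM in ESC (1.33 ± 0.385, adjusted p = 0.162). Untreated levels were alike and treated levels did not overlap, with a difference of 1.22 (95% interval 0.08 to 2.37, adjusted p = 1.00). Hes1 was called in ESC as well with clone as a block (adjusted p = 0.0208), and its iPSM call was lost without untreated clone 12 (0.102). Hes7, the core oscillator gene of the segmentation clock, was called in neither. It was at 0.176 and 0.0761 CPM in untreated and 0.552 and 0.292 CPM in treated ESC, and at 7.15 and 20.0 CPM in untreated and 21.1 and 30.1 CPM in treated iPSM. All iPSM libraries were above all ESC libraries. The log2 change of Hes7 was 1.73 ± 0.697 in ESC (adjusted p = 0.401) and 0.92 ± 0.427 in iPSM (adjusted p = 1.00), a difference of -0.82 (95% interval -2.55 to 0.91). Ripply2, a segment boundary gene, stayed at or under 0.150 CPM in ESC and went from 0.0189 and 0.134 CPM to 1.20 and 3.57 CPM in iPSM (4.98 ± 0.887, adjusted p = 0.0135). That call was lost without untreated clone 12 (0.17), untreated clone 20 (0.069) or treated clone 20 (0.387).

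Signal feedback genes gave calls that were spread between the cell types. Of 24 FGF and MAPK genes, 3 rose in ESC and 2 in iPSM, with 1 in both, against 0.999%, 0.701% and 0.38% of all genes tested. That gene, Dusp2, encodes a phosphatase of MAP kinases and went from 1.64 and 2.65 CPM to 7.30 and 13.7 CPM in ESC (2.29 ± 0.350, adjusted p = 0.00309) and from 3.26 and 2.47 CPM to 25.01 and 29.1 CPM in iPSM (3.24 ± 0.359, adjusted p = 0.000223). Dusp1, a phosphatase gene of the same family, rose in ESC from 6.50 and 5.42 CPM to 14.8 and 30.4 CPM (1.92 ± 0.429, adjusted p = 0.0435). In iPSM it was at 3.79 and 4.96 CPM untreated and 4.20 and 5.32 CPM with dox (0.12 ± 0.423, adjusted p = 1.00). Both promoters hold a CACGTG, shown above. Fgfr1, an FGF receptor gene, rose in ESC by 1.01 ± 0.217 (adjusted p = 0.0343) to 64.7 and 74.2 CPM. It stood at 127 and 94.4 CPM in untreated iPSM and changed by -0.21 there. Spry1, an FGF feedback inhibitor gene, rose in iPSM by 1.29 ± 0.222 (adjusted p = 0.0083) and changed by 0.68 in ESC (adjusted p = 0.24). Of 20 Wnt genes, Rnf43 and Lrp5 rose in ESC (0.999% of all genes rose) and none was called in iPSM with edgeR (0.701% of all genes), where 5 had an unadjusted p under 0.05 and DESeq2 called 1. In iPSM Rnf43 changed by 1.03 (adjusted p = 0.346) and Lrp5 by 0.35. Calls in this paragraph other than Dusp2 in iPSM were lost in at least 1 fit without 1 library, with adjusted p up to 0.36 for Dusp1, 0.278 for Fgfr1, 0.18 for Spry1, 0.332 for Rnf43, 0.437 for Lrp5 and 0.0834 for Dusp2 in ESC.

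Immediate early and metabolic genes were called in both cell types. Of 29 immediate early genes, 4 rose in ESC and 5 in iPSM, with Junb and Nr4a3 in both. The shares of all genes tested were 0.999%, 0.701% and 0.38%. Junb, which encodes an AP-1 subunit, went from 69.6 and 113 CPM to 163 and 208 CPM in ESC (1.03 ± 0.233, adjusted p = 0.0476) and from 12.3 and 11.9 CPM to 48.5 and 56.5 CPM in iPSM (2.12 ± 0.243, adjusted p = 0.0003). The ESC libraries of Junb stood above the iPSM libraries in both conditions. Nr4a3, an orphan nuclear receptor gene, rose by 6.42 ± 0.780 in ESC (adjusted p = 0.000531) and by 5.89 ± 0.758 in iPSM (adjusted p = 0.000836), to 25.1 and 11.7 CPM and to 8.42 and 25.1 CPM. Fosl1, another AP-1 gene, went from 0.606 and 0.245 CPM to 4.38 and 4.03 CPM in iPSM (3.28 ± 0.453, adjusted p = 0.00152) and from 1.41 and 2.30 CPM to 4.84 and 4.94 CPM in ESC (1.40 ± 0.406, adjusted p = 0.164). Treated levels of Fosl1 were between 4.03 and 4.94 CPM in all 4 libraries, while untreated levels were higher in ESC. Maff was called in iPSM (1.90 ± 0.307, adjusted p = 0.00505) and in ESC with clone as a block (0.0382), and Nr4a1 in ESC (1.57 ± 0.288, adjusted p = 0.0112). Without the block Maff changed by 1.22 in ESC (adjusted p = 0.0738) and Nr4a1 by 0.95 in iPSM (adjusted p = 0.285). Of 23 hypoxia and glycolysis genes, 1 rose in ESC and 3 in iPSM, against the same shares. Ndrg1, a stress-responsive gene, rose in both, from 14.5 and 13.2 CPM to 173 and 97.8 CPM in ESC (3.29 ± 0.393, adjusted p = 0.000482) and from 5.55 and 3.89 CPM to 111 and 154 CPM in iPSM (4.81 ± 0.425, adjusted p = 3.2e-05). Hk2 and Pfkfb3, which encode enzymes of glycolysis and its control, rose in iPSM by 1.10 ± 0.214 (adjusted p = 0.0212) and 1.99 ± 0.255 (adjusted p = 0.000836). In ESC they changed by 0.43 (adjusted p = 0.53) and 0.93 (adjusted p = 0.107). Calls lost without 1 library had adjusted p up to 0.47 for Junb in ESC, 0.136 for Maff, 0.144 for Nr4a1 and 0.614 for Hk2.

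The lists of cell state genes had few calls. None of 20 naive pluripotency genes, 16 feeder genes and 8 measured endoderm genes was called in either cell type with edgeR or DESeq2, which is near the background of 1.07% in ESC and 0.701% in iPSM. An unadjusted p under 0.05 was seen for 3 naive genes and 1 feeder gene in ESC and for 1 naive gene in iPSM, against 2667 and 1153 of the 26814 genes tested. Of 20 presomitic genes edgeR called Lfng alone, in both cell types, while the list medians were -0.48 in ESC and -0.28 in iPSM and 9 genes had an unadjusted p under 0.05 in ESC and 3 in iPSM. DESeq2 called 4 presomitic genes in ESC. Lfng and Dll3, a Notch ligand gene, were higher with dox, and Cyp26a1, a retinoic acid-degrading enzyme gene, and Fgf17, an FGF ligand gene, were lower. With edgeR these 3 other genes had log2 changes of 1.26 ± 0.343 for Dll3 (adjusted p = 0.119), -2.04 ± 0.621 for Cyp26a1 (0.199) and -1.20 ± 0.345 for Fgf17 (0.157) in ESC, and they are named after their values were seen. Of 15 somite genes measured, Ripply2 was called in iPSM with both tools and none in ESC, where 2 had an unadjusted p under 0.05. Of 12 neural genes measured, Olig2, a neural progenitor gene, was called in iPSM, where it had 1 count untreated and 27 counts with dox (ratio of depth-scaled counts 27.4, 95% counting interval 4.52 to 1122). In ESC Olig2 was at 7.26 and 6.55 CPM untreated and 3.86 and 4.09 CPM with dox, without a call (adjusted p = 0.485). In ESC 4 neural genes had an unadjusted p under 0.05, and DESeq2 called 1, Zic1, which encodes a zinc-finger factor (3.25 ± 0.811 and adjusted p = 0.0795 with edgeR). The iPSM call was lost with DESeq2 (adjusted p = 0.0821) and without untreated clone 12 (0.241), untreated clone 20 (0.0963) or treated clone 20 (0.365). In the Myc network (13 genes) DESeq2 called 4 genes in ESC and 2 in iPSM, and 5 and 6 had an unadjusted p under 0.05. With edgeR Mycl alone was called. It fell in ESC (0.0709% of all genes fell there), from 16.01 and 21.9 CPM to 7.62 and 10.04 CPM (-1.10 ± 0.247, adjusted p = 0.0438), and was not called in iPSM (-0.23 ± 0.239). That call was lost without each ESC library in turn, with adjusted p from 0.0539 to 0.425.

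No gene passed the test of the difference itself. With edgeR, 0 of 26814 genes (0%) differed between the cell types in their response to Clock/Bmal1 at an adjusted p under 0.05, 1082 (4.04%) had an unadjusted p under 0.05, and 0 were called with any 1 of the 8 libraries left out. DESeq2 called 15 of the 19016 genes to which it gave an adjusted p (0.0789%). With clone as a block edgeR called 1 gene (0.00373%), and among the 8 Clock/Bmal1 libraries alone, a fit added after the data had been seen, the block gave 9 (0.0409%). With no filter on low counts it called 89 of 44151 genes (0.202%), all of which had also been tested in the filtered fit. The test had wide intervals: over all genes tested with more than 3 counts in each group, the median distance from the difference to either bound of its 95% interval was 0.975 log2 units, and 1.11 over genes called in both cell types. Among those 90 shared genes 9 had an interval within 1 log2 unit of 0, while 5 had one wholly above 0 and 8 wholly below it, so a failed test does not show equal responses. In the Clock/Bmal1DN clones the same difference had 0 calls with edgeR, 710 genes (2.65%) with an unadjusted p under 0.05, and 0 calls with DESeq2. The Clock/Bmal1 difference net of that one had 0 calls with edgeR, 738 genes (2.75%) with an unadjusted p under 0.05, and 1 call with DESeq2.

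The 15 genes that DESeq2 called are described because they are the clearest candidates for a difference, and they are named after their values were seen. In 5 the change was lower in iPSM and in 10 it was higher. For all 15 both clone changes in one cell type lay on one side of both clone changes in the other, which held for 35.3% of all genes tested with more than 3 counts in each group. With edgeR their adjusted p for the difference ran from 0.175 to 0.845, 7 were called in ESC, 7 in iPSM, none in both and 1 in neither.

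Spib, which encodes an Ets-family transcription factor of lymphoid cells, had the lowest change in iPSM relative to ESC. It was at 0.352 and 0.381 CPM in untreated ESC and at 10.9 and 11 CPM with dox, against 0.379 and 0.512 CPM and 0.355 and 0.858 CPM in iPSM. Untreated levels were alike in the 2 cell types, and both treated ESC libraries stood above all 6 others. Spib rose by 4.89 ± 0.566 in ESC (adjusted p = 0.000376) with a change of 0.46 ± 0.542 in iPSM (adjusted p = 1.00), a difference of -4.43 (95% interval -6.06 to -2.81). The adjusted p of the difference was 0.298 with edgeR, 0.0277 with clone as a block and 0.000582 with DESeq2. In the Clock/Bmal1DN clones the difference was -0.13.

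The other 4 genes with a lower change in iPSM were Tns4, Ednra, Lrrc8b and Gaa. Tns4, which encodes a tensin of focal adhesions, went from 0.781 and 0.590 CPM to 10.8 and 3.75 CPM in ESC (3.40 ± 0.544, adjusted p = 0.00438) and from 4.35 and 3.29 CPM to 3.13 and 2.67 CPM in iPSM (-0.40 ± 0.488, adjusted p = 1.00). Ednra, the endothelin A receptor gene, went from 0.137 and 0.0761 CPM to 1.10 and 1.22 CPM in ESC (3.42 ± 0.583, adjusted p = 0.007) and from 1.38 and 0.957 CPM to 0.800 and 0.877 CPM in iPSM (-0.48 ± 0.475, adjusted p = 1.00). Lrrc8b, which encodes a subunit of volume-regulated anion channels, went from 6.25 and 6.13 CPM to 34.5 and 22.3 CPM in ESC (2.20 ± 0.309, adjusted p = 0.00148) and from 25.5 and 17.6 CPM to 26.2 and 28.0 CPM in iPSM (0.33 ± 0.294, adjusted p = 1.00). In these 3 genes untreated iPSM stood well above untreated ESC, and treated ESC reached or passed the range of the iPSM libraries. Gaa, which encodes lysosomal acid alpha-glucosidase, was nearly level between untreated cell types, at 17.4 and 16.4 CPM in ESC and 23.2 and 20.7 CPM in iPSM. It rose to 36.2 and 38.9 CPM in ESC (1.15 ± 0.190, adjusted p = 0.00524) and was at 21.6 and 19.6 CPM in treated iPSM (-0.09 ± 0.187, adjusted p = 1.00). DESeq2 gave the differences adjusted p of 0.00203 for Tns4, 0.0247 for Ednra, 0.0419 for Lrrc8b and 0.00348 for Gaa, while edgeR gave 0.42, 0.42, 0.719 and 0.705. Spib and Lrrc8b kept their ESC call without any 1 library, and the other 3 lost it with adjusted p up to 0.0987 for Tns4, 0.138 for Ednra and 0.102 for Gaa.

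**Figure D3:**
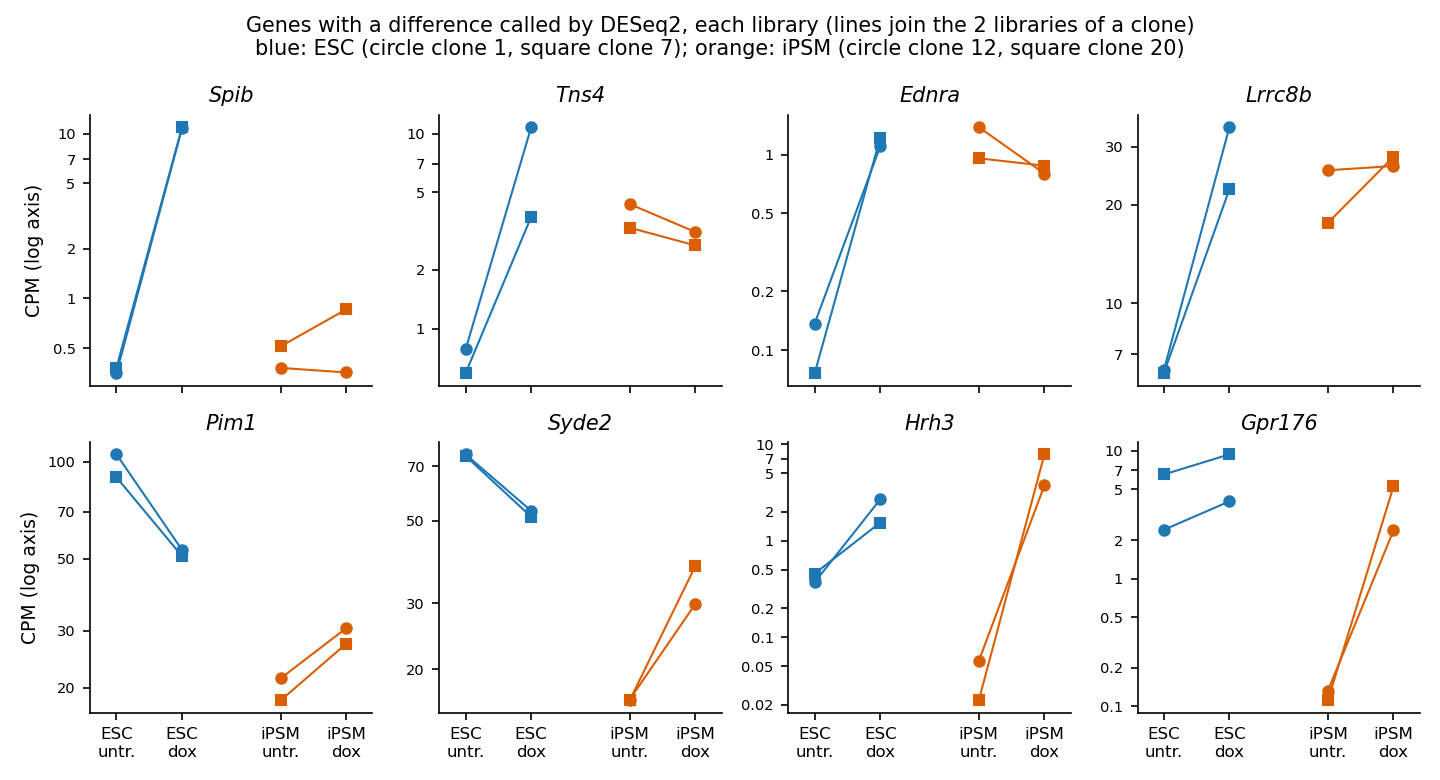
CPM on a log axis in each of the 8 libraries for 8 of the 15 genes whose difference DESeq2 called, with a line joining the 2 libraries of each clone. Spib climbs in ESC alone from equal untreated levels, Tns4, Ednra and Lrrc8b climb in ESC towards or past a higher iPSM level, Pim1 and Syde2 run in opposite directions, and Hrh3 and Gpr176 climb most in iPSM.

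In 10 genes the change was higher in iPSM, and in all 10 the untreated level was lower in iPSM than in ESC in the Clock/Bmal1DN clones, as in 48.2% of all genes tested. Of the 5 genes with a lower change in iPSM, 3 had the higher untreated level in iPSM in those clones. The values of those clones do not enter the difference, but their spread entered the fit. Hrh3, the histamine H3 receptor gene, went from 0.0568 and 0.0223 CPM to 3.73 and 7.82 CPM in iPSM (7.06 ± 0.723, adjusted p = 0.000128) and from 0.371 and 0.457 CPM to 2.68 and 1.54 CPM in ESC (2.34 ± 0.539, adjusted p = 0.0505, and 0.0112 with clone as a block). Its difference was the highest of the 15, at 4.71 (95% interval 2.77 to 6.65, adjusted p = 0.42 with edgeR and 0.0368 with DESeq2). Gpr176, which encodes an orphan receptor of the circadian pacemaker in the brain, went from 0.132 and 0.111 CPM to 2.38 and 5.26 CPM in iPSM (4.93 ± 0.788, adjusted p = 0.00481). In ESC it was at 2.40 and 6.51 CPM untreated and 4.01 and 9.35 CPM with dox (0.58 ± 0.589, adjusted p = 0.772), and its reads are shared with the overlapping Gm29232. Treated iPSM thus reached the range of untreated ESC. Insm1, a neuroendocrine zinc-finger gene, went from 0.0379 and 0.111 CPM to 1.55 and 1.42 CPM in iPSM (4.31 ± 0.600, adjusted p = 0.0016) and from 2.46 and 1.67 CPM to 3.79 and 2.60 CPM in ESC (0.63 ± 0.432, adjusted p = 0.655). Pou3f1, a POU factor gene of primed pluripotent and neural cells, went from 2.54 and 3.29 CPM to 11.4 and 14.4 CPM in iPSM (2.15 ± 0.258, adjusted p = 0.00049). In ESC it was at 33.1 and 36.7 CPM untreated and 58.5 and 49.9 CPM with dox (0.64 ± 0.240, adjusted p = 0.362). Gipr, an incretin receptor gene, rose in iPSM by 3.20 ± 0.405 (adjusted p = 0.000772) and changed by 0.71 ± 0.369 in ESC (adjusted p = 0.555). Hrh3, Gipr and Pou3f1 kept their iPSM call without any 1 library. Gpr176 lost it without untreated clone 12 (0.102), untreated clone 20 (0.136) or treated clone 20 (0.0538), and Insm1 without untreated clone 12 (0.0543).

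The other 5 had negative values in ESC. Pim1, which encodes a serine/threonine kinase, fell in ESC from 105 and 89.4 CPM to 53.3 and 51.0 CPM (-0.90 ± 0.162, adjusted p = 0.0102). In iPSM it was at 21.4 and 18.3 CPM untreated and 30.6 and 27.3 CPM with dox (0.55 ± 0.162, adjusted p = 0.273). Its levels in the 2 cell types were thus nearer with dox than without, and the difference was 1.45 (95% interval 0.96 to 1.93, adjusted p = 0.175 with edgeR and 1.26e-06 with DESeq2). Syde2, which encodes a GTPase-activating protein, rose in iPSM from 16.6 and 16.5 CPM to 29.9 and 37.8 CPM (1.04 ± 0.167, adjusted p = 0.00505). In ESC it was at 75.4 and 74.7 CPM untreated and 53.2 and 51.3 CPM with dox (-0.52 ± 0.164, adjusted p = 0.221). The difference of Syde2 was 1.56 (95% interval 1.06 to 2.06, adjusted p = 0.175 with edgeR and 7.13e-07 with DESeq2). D16Ertd472e rose in iPSM by 1.03 ± 0.222 (adjusted p = 0.0453) with a value of -0.52 ± 0.221 in ESC (adjusted p = 0.445). Dhrs7, a short-chain dehydrogenase gene, fell in ESC from 27.7 and 21.1 CPM to 10.1 and 9.96 CPM (-1.28 ± 0.208, adjusted p = 0.00501), down to the 8.79 to 11.6 CPM of all iPSM libraries. Gadd45g, a stress and differentiation gene, was called in neither cell type with edgeR. It was at 23.0 and 25.7 CPM untreated and 9.26 and 18.6 CPM treated in ESC, and at 3.05 and 2.03 CPM untreated and 10.3 and 6.14 CPM treated in iPSM. Gadd45g was called in iPSM with clone as a block (adjusted p = 0.0445). Without 1 library the calls of Pim1, Syde2, D16Ertd472e and Dhrs7 were lost with adjusted p up to 0.177, 0.148, 0.851 and 0.102.

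The 9 genes called with clone as a block among the 8 libraries alone were Spib, Tns4, Car14 and Trpm1, with lower values in iPSM, and Gpr176, Gadd45g, Gadd45b, Pim3 and Rgs16, with higher values. Of these, 4 were also called by DESeq2. Car14, a membrane carbonic anhydrase gene, rose in ESC from 0.527 and 0.685 CPM to 10.3 and 15.3 CPM (4.39 ± 0.613, adjusted p = 0.00141), while iPSM was at 15.5 and 27.8 CPM untreated and 31.9 and 51.0 CPM with dox. Pim3, a kinase gene of the Pim1 family, rose in iPSM from 14.1 and 18.5 CPM to 47.0 and 63.6 CPM (1.76 ± 0.253, adjusted p = 0.002), while ESC was at 216 and 169 CPM untreated and 269 and 190 CPM with dox. Rgs16, a G-protein signalling regulator gene, rose in iPSM from 0.965 and 1.54 CPM to 8.02 and 11.2 CPM (2.95 ± 0.595, adjusted p = 0.0274), while ESC was at 13.6 and 36.2 CPM untreated.

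**Figure D4:**
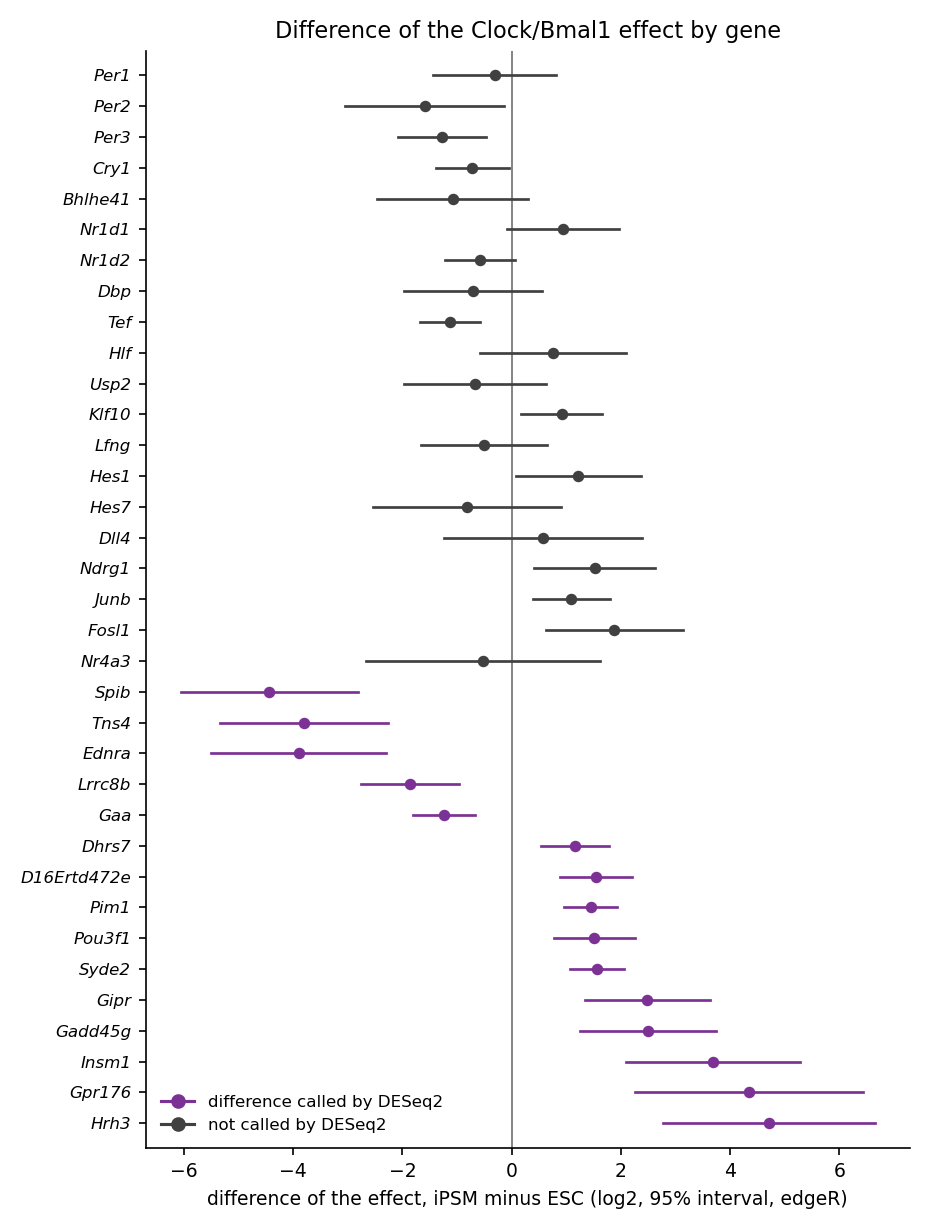
Difference of the log2 change with dox, iPSM minus ESC, with its 95% interval from edgeR, for 35 genes described in the text; purple marks the genes whose difference DESeq2 called. Intervals of Per1, Lfng and Hes7 include 0, and those of Spib and Hrh3 lie farthest from it on either side.

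Genes called in 1 cell type were next compared by their untreated level. It was taken from the untreated Clock/Bmal1DN clones, since an untreated level from the Clock/Bmal1 clones would enter the difference itself. Among the 166 genes called higher in ESC only, 109 had a higher untreated level in iPSM, with a median gap of 0.45 log2 units (iPSM minus ESC). The gap was above 1 for 64 of these genes and below -1 for 22. Among the 86 genes called higher in iPSM only, 51 were lower in iPSM, with a median gap of -0.53, above 1 for 18 and below -1 for 35. As shares, 65.7% of the ESC-only genes were higher in iPSM and 59.3% of the iPSM-only genes were lower in iPSM, with 40.7% below -1. The 102 shared genes were close to the latter, with 56.9% lower in iPSM, 38.2% below -1 and a median gap of -0.29. Over all genes tested 50.4% were higher and 48.2% lower in iPSM, with 27.9% above 1, 25.02% below -1 and a median gap of 0.01. The genes called in ESC only thus had the higher untreated level in iPSM more often than all genes did, while genes called in iPSM only were near the shared genes. None of these shares was tested. The 19 genes that fell in ESC went the other way, with a median gap of -0.95.

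The same genes were also compared in CPM of the Clock/Bmal1 clones. These libraries chose the genes, which favours a larger gain in the cell type that called them. The 166 genes called higher in ESC only had a median of 4.05 CPM in untreated and 12.9 CPM in treated ESC, against 6.36 and 11.3 CPM in iPSM, so treated medians were near each other and the median gain was 9.71 CPM in ESC and 4.11 CPM in iPSM. The 86 genes called higher in iPSM only had medians of 1.55 and 8.32 CPM in iPSM and 2.74 and 5.70 CPM in ESC, with gains of 6.35 and 2.66 CPM. The 102 shared genes gained a median of 13.5 CPM in ESC and 11.1 CPM in iPSM. The 19 genes that fell in ESC went from a median of 33.4 to 15.9 CPM there and from 28.0 to 25.4 CPM in iPSM. Of genes called higher in ESC only, 7.23% were under 0.1 CPM in untreated ESC, and of those called in iPSM only 15.1% in untreated iPSM, against 19.1% and 18.6% of all genes tested. Most genes of both sets thus had untreated reads in the cell type that called them.

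The 331 genes called higher in at least 1 cell type, with more than 3 counts in each group, were then split by the untreated gap in the Clock/Bmal1DN clones. In the 44 genes whose untreated level was over 4-fold lower in iPSM, the median log2 change was 1.48 in ESC and 2.45 in iPSM, and the median difference was 1.10, positive in 35 genes (79.5%). In the 148 genes within 2-fold it was -0.54, positive in 48 (32.4%). In the 41 genes whose untreated level was over 4-fold higher in iPSM, the medians were 2.28 and 1.03, and the median difference was -1.23, positive in 8 (19.5%). The steps between, 2- to 4-fold lower and 2- to 4-fold higher, had -0.12 (45 genes) and -0.62 (53 genes), so the medians fell from the lowest to the highest untreated gap. Over the 21582 genes tested with more than 3 counts in each group the matching medians were 0.105, 0.122, -0.04, -0.25 and -0.26, and the Clock/Bmal1DN difference had medians of 0.05, 0.168, -0.14, -0.11 and -0.38 over the 331 genes. The untreated Clock/Bmal1DN libraries that set the groups also enter that last difference. The 331 genes were chosen by a call in one of the cell types, and they are not replicates, so the medians are a description. Across the 331 genes the difference and the untreated gap correlated at Pearson's r = -0.395 and Spearman's rank coefficient = -0.389, and across all 21582 at -0.207 and -0.255, over genes that share the libraries.

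The larger log2 change did not mean the larger gain in CPM. The split by untreated level favours this, since at an equal log2 change the higher untreated level gains more CPM. Of the 44 genes over 4-fold lower in untreated iPSM, only 10 gained more CPM in iPSM than in ESC, with median gains of 3.54 and 7.41 CPM, although 35 had the larger log2 change in iPSM. Of the 41 genes over 4-fold higher in untreated iPSM, 27 gained more CPM in iPSM, with median gains of 6.95 CPM in iPSM and 2.58 CPM in ESC. The gap between the cell types also stayed after treatment. In the former group it was a median of -2.43 log2 units untreated and -1.56 with dox, and in the latter 2.39 and 1.66. Over all genes of the same groups it was -2.40 and -2.29, and 2.26 and 1.97. The gap was thus smaller with dox in all of these sets, and the called genes were chosen by a rise.

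**Figure D5:**
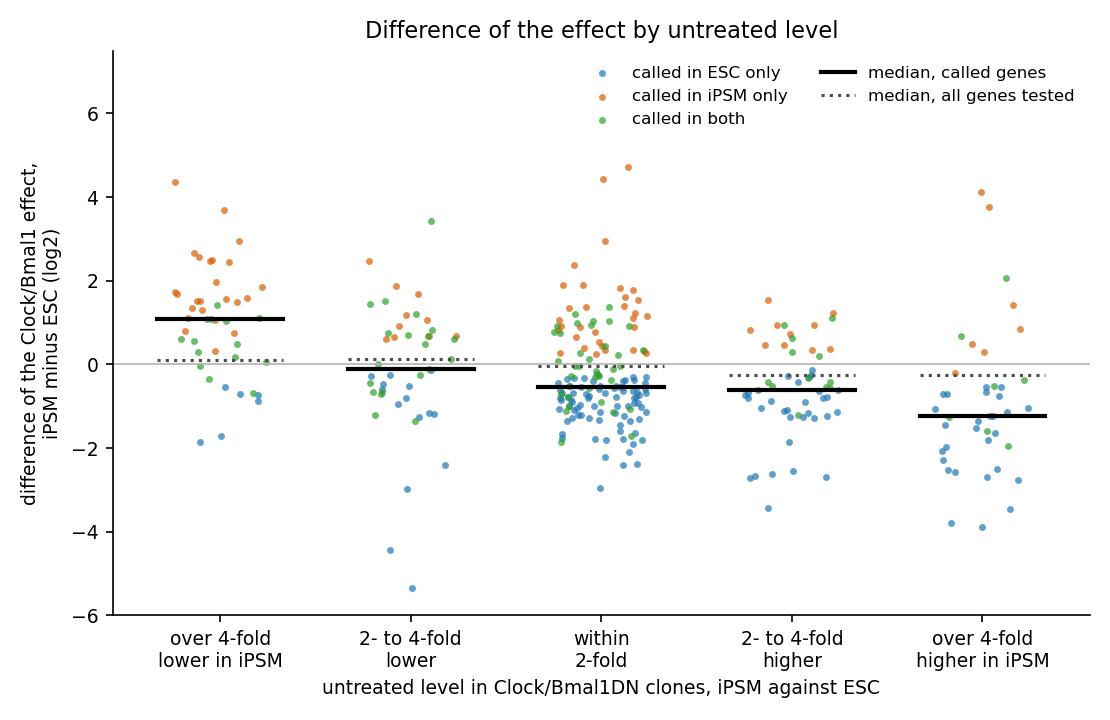
Difference of the log2 change, iPSM minus ESC, for the 331 genes called higher in at least 1 cell type, by how their untreated level compares between iPSM and ESC in the Clock/Bmal1DN clones; solid bars are medians of these genes and dotted bars medians of all genes tested. The solid bars step from 1.10 at the left to -1.23 at the right, while the dotted bars stay between -0.26 and 0.122.

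Gene length was compared because treatment lasted 6 hours in ESC and 2 hours in iPSM, and reads were counted over whole gene bodies. Genes called higher in ESC only had a median gene body of 24.6 kb, against 13.2 kb for genes called in iPSM only, 13.8 kb for shared genes and 15.5 kb for all genes tested. Genes longer than 100 kb made up 13.3% of the first set, 11.6% of the second, 9.80% of the shared genes and 9.62% of all genes tested. The part of treatment time in these lengths was not tested.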

How the data were processed

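RNA of 20 mouse libraries, 8 of them from the Clock/Bmal1 clones, was sequenced as stranded total RNA in paired ends, per the labels' protocols. The submitters' processing notes name bcl2fastq, STAR 2.7.2a, HOMER and the genome mm10. The deposited tables hold, for 55421 features each, expected counts over whole gene bodies that the authors did not normalise, per the file headers, and the same values as RPKM. Of the counts 18.1% ended in 0.5, and all were rounded to whole numbers. RPKM was not used in any test. The transcript IDs joined both tables, and 113 symbols occur more than once.

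All 20 libraries were fitted as 12 groups with edgeR 4.0.16 in R 4.3.3: TMM factors, filterByExpr by group (26814 genes kept), glmQLFit and glmQLFTest, 8 residual degrees of freedom and a median prior of 7.19. Tests were two-sided with Benjamini-Hochberg adjustment over all genes tested. CPM are TMM-normalised, and the SE was taken as the ratio of the log2 change to the root of the F statistic. The fit was also run on simulated counts with known changes. These had a fixed spread for all genes, a common baseline for all groups and no pairing of clones. That run therefore does not show the power of the test in these data. DESeq2 1.42.0, other normalisations, filters and sample sets, a clone block and left-out libraries were alternatives, and the clone block among the 8 libraries was added after seeing the data. Treated and untreated libraries of a clone come from the same line, so clone numbers pair them. Their deviations from the group means correlated at 0.633 in ESC and 0.309 in iPSM over 14904 genes. The fit of 12 groups does not use this pairing, which the clone block does. Each library is 1 sample of a clone, so p-values of the fit of 12 groups measure the spread between clones in level. They do not measure the spread between clones in the change with dox.

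Genes named always are Lfng, Hes7, Dbp, Nr1d1, Per1, Per2, Clock and Arntl. To these the rule adds the largest differences among genes past the threshold (there were none), the 8 shared genes with the largest smaller change, and up to 4 called genes per list. One provisional symbol among the shared genes was left out of the text. One list member is not reported here. The members, lists and rule were chosen with earlier results of these data known. Promoters were matched by symbol within 1000 bases of the start in the tables. Python 3.11.15, scipy 1.17.1 and matplotlib 3.10.9 were used for intervals and figures.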

Additional observations from a re-analysis of the deposited data

How the results depend on the processing

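Counts of calls moved with the setting, and the cause was not tested. ESC calls (287 as reported) were 581 with DESeq2, 734 without a filter, 147 in the 8 libraries alone, 498 with clone as a replicate block, 654 with that block among the 8 libraries alone, and 73 to 339 with 1 library left out. iPSM calls (188) were 316, 436 and 113 in the first 3 of these, 325 with the block among 8 libraries, and 63 to 218 with 1 library left out. Shared calls (102) were 175, 224, 65, 156 and 194 in that order of settings, and 46 to 117 with 1 library left out. Calls of the difference (0) were 15 with DESeq2, 89 without a filter, 1 with the block and 9 with the block among 8 libraries. The Clock/Bmal1DN difference (0) had 92 calls and the net difference (0) 50 without a filter, and the net difference 1 with DESeq2. The iPSM share of the ESC change (0.567) was 0.348 without a filter, 0.351 with the block among 8 libraries and 0.488 to 0.782 with 1 library left out. The ESC share of the iPSM change (0.743) was 0.619 to 0.875 with 1 library left out. Other normalisations, a filter of 1 CPM and a fit without the control lines kept every count within 1.5 times. With clone as a block the calls of 7 named results changed, all given beside them, and no other named call did. A change of sign with 1 library left out touched no called value. The difference ran from -0.84 to 0.63 for Per1, -0.54 to 0.28 for Arntl, -1.97 to 0.22 for Nr4a3, -1.13 to 0.0896 for Usp2, -1.52 to 0.10 for Hes7 and -1.12 to 0.35 for Lfng. The ESC change of Gpr176 ran from -0.15 to 1.47. The iPSM change ran from -0.27 to 0.0311 for Dhrs7, -0.0595 to 0.33 for Dusp1, -0.41 to 0.0147 for Fgfr1, -0.0369 to 0.88 for Lrp5, -0.47 to 0.0592 for Mycl and -0.32 to 0.95 for Spib. Depth limits Ntsr2, Nkx1-1, Prok2, Helt and Olig2, which have 3 or fewer counts in a group, and 2 clones per group limit all tests of the difference.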
